A study of Mus musculus with 4 samples.

Results

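The genes Tcf7 and Lef1 encode the transcription factors Tcf1 and Lef1, and both were deleted in the mutant cells of this DNase I accessibility data set. The sites described here are the deposited peaks whose midpoint lay in 1 of 2 windows of the mouse build mm9. The Tcf7 window was chr11:52000000-52160000, with a gene body at about 52.066 to 52.097 Mb. The Lef1 window was chr3:130750000-131000000, with a gene body at about 130.813 to 130.927 Mb. They held 69 of 84735 deposited peaks, 31 at Tcf7 and 38 at Lef1. Merging peaks that overlapped by at least 1 bp gave 30 sites of 38986 union regions, 14 at Tcf7 and 16 at Lef1.

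Tcf1 and Lef1 are related proteins that bind DNA through an HMG box, and they can recruit beta-catenin, the effector of Wnt signalling, or Groucho/TLE corepressors. Both are expressed in developing and naive T cells and fall in many effector CD8+ T cells. Tcf7 is known to be switched on in early T cell precursors by Notch signalling. DNase I cuts DNA that is not wrapped tightly in nucleosomes, so a peak of cuts marks an accessible stretch such as an enhancer or a promoter.

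The mutant group (DKO, Tcf1-/-Lef1-/-) came from mice with both genes floxed, and the control group (WT) from mice with wild-type alleles of both. All mice of both groups carried the hCD2-Cre transgene, which expresses Cre recombinase in lymphocytes, and Rosa26-lsl-GFP, a reporter that Cre switches on. Splenic CD8+ T cells were sorted as GFP+ and TCRbeta+ with high CD62L and low to medium CD44, and were kept in IL-7 and IL-15 for 72 h. There were 2 libraries per genotype, each with its own peak list. The DKO lists held 34788 and 21353 peaks and the WT lists 17521 and 11073, for replicates 1 and 2. Peaks on chromosome Y numbered 55 and 57 in the DKO lists and 0 and 0 in the WT lists. The labels give no sex. The difference on Y runs with genotype in all 4 libraries. Whatever goes with it cannot be told apart from genotype in any comparison of DKO with WT here. No label says that replicates came from separate animals, so their spread may be purely technical. The stretch that Cre removes from each gene is not given in the labels. A peak outside that stretch does not check the deletion. Which of the sites described here lie outside it is not known, so they were not used to check the genotype labels. The labelled cell type was not checked against marker genes, since no mm9 annotation was used.

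The first annotated start of each gene is shown because no list had a peak at the 5′ end of either. A further Lef1 start, 2.5 kb from the first and not the most distant, is also shown. RefSeq holds 2 such windows for Tcf7 and 4 for Lef1, and the others are not printed. Each line is a start window of 300 bases from RefSeq (build GRCm38.p6), 5′ to 3′ on the gene's strand. The first is Tcf7 at chr11:52282965-52283264 on the minus strand, the next Lef1 at chr3:131110047-131110346 on the plus strand. The last is a further Lef1 start 2.5 kb downstream, at chr3:131112541-131112840 on the plus strand. Capitals mark the letters CTTTG, the core that TCF and LEF proteins recognise, or its reverse complement.
Tcf7 first start: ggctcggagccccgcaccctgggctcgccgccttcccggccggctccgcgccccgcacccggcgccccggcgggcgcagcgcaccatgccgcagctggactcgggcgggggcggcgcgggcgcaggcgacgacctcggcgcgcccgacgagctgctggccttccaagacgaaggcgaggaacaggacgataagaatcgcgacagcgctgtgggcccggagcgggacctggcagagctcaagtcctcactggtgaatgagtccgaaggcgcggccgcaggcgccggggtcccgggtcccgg
Lef1 first start: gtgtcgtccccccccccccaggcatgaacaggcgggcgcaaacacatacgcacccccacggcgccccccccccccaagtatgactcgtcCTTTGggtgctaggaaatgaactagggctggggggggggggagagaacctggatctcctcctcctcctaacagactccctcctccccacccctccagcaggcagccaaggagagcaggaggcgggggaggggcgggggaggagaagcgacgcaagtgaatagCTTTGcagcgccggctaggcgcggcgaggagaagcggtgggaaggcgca
Lef1 downstream start: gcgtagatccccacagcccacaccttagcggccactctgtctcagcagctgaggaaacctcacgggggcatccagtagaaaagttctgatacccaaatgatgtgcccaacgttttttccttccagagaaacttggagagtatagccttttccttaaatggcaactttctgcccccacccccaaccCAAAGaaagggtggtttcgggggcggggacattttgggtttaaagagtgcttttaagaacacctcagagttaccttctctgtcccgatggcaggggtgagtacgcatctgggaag
GC content was 76.3% in the Tcf7 window, 67.3% in the first Lef1 window and 51.7% in the downstream Lef1 window, against a median of 52.7% over 32851 RefSeq start windows. Searched on both strands, CTTTG occurred 0 times in the Tcf7 window, 2 times in the first Lef1 window and 1 time in the downstream one. It was present in 53.9% of all start windows. None of 3 longer forms, each of which contains CTTTG, occurred in the printed windows. CTTTGAA was present in 5.14% of all start windows. The form CTTTGAT was present in 3.73% of them and the form CTTTGTT in 5.85%. These letters describe the sequence and are not evidence of binding. The genome builds differ, so the windows were not placed on the mm9 peaks.

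The calls at both targeted loci were kept in the DKO cells. Every site called in both WT libraries was also called in both DKO libraries, 3 of 3 at Tcf7 and 6 of 6 at Lef1. Over all union regions the share kept was 90.4%, so the loci stood close to the rest of the genome in this respect. No site at either locus was called in both WT libraries and neither DKO library, against 0.631% of all union regions. Taking each WT list alone, all 10 sites of WT replicate 2 were called in both DKO libraries, against 81.7% of its regions genome-wide. Of the 17 sites of WT replicate 1, 11 were called in both DKO libraries, 3 in 1 and 3 in neither. Genome-wide these shares were 72.5%, 16.4% and 11.0%. The kept calls rest on the full lists. With lists of equal length ranked by fold, 1 site was kept and 1 lost at each gene. At a −log10 q of at least 10, WT replicate 2 had no peak at Lef1. No Lef1 site could therefore count as kept or lost at that setting. Without WT replicate 2, a site needs only WT replicate 1 to count, and 2 sites at Tcf7 and 1 at Lef1 were lost. In bulk DNase-seq, fewer accessible cells and fewer cuts per cell cannot be told apart.

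**Figure D1:**
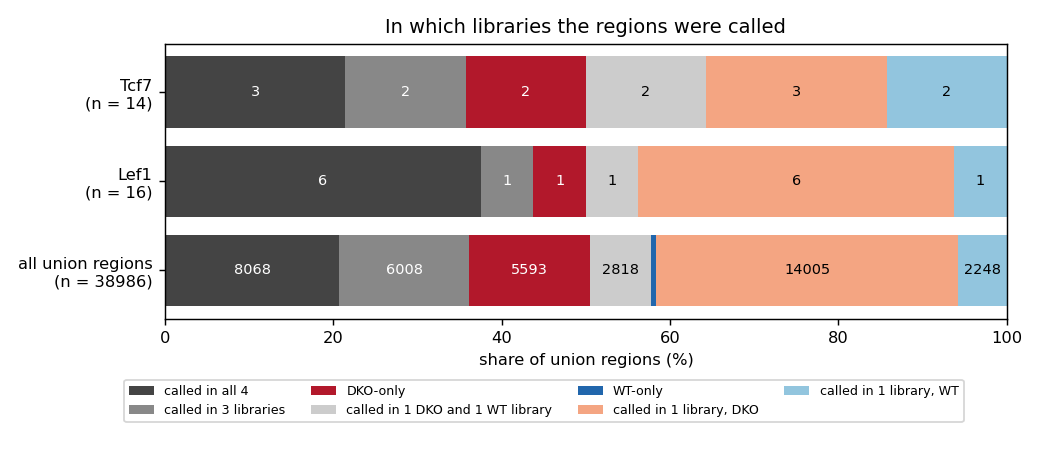
Share of union regions (x axis, %) by the libraries in which they were called, for the 14 Tcf7 sites, the 16 Lef1 sites and all 38986 union regions, with the number of regions written in each bar segment. Regions called in all 4 libraries made up 21.4% at Tcf7, 37.5% at Lef1 and 20.7% of all union regions, and neither locus held a WT-only site.

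The 3 sites of WT replicate 1 with no DKO call were all absent from WT replicate 2 as well. They are named because of their values. In the Tcf7 body, the site chr11:52082071-52082187, 15 kb from the 5′ end, had a fold enrichment of 5.04 and a pileup of 19 fragments at its summit. Upstream of Tcf7 by 14 kb, chr11:52110916-52111073 had a fold of 4.44. Downstream of Lef1, chr3:130948626-130948866 had a fold of 5.75. A fold is the authors' own value. It equals the pileup at the summit plus 1 over the local background plus 1, and the lowest fold in any list was just above 4. It ranks sites within a list and is not compared between lists here.

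At Tcf7 the strongest sites lay upstream of the gene. Of the 14 sites, 8 lay upstream, 3 in the gene body and 3 downstream. The upstream stretch held all 3 sites called in all 4 libraries. The nearest listed peak to the 5′ end was 7.8 and 16.2 kb away in DKO replicates 1 and 2, and 7.9 and 16.2 kb away in WT replicates 1 and 2. The position of the 5′ end is known here to about 1 kb.

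**Figure D2:**
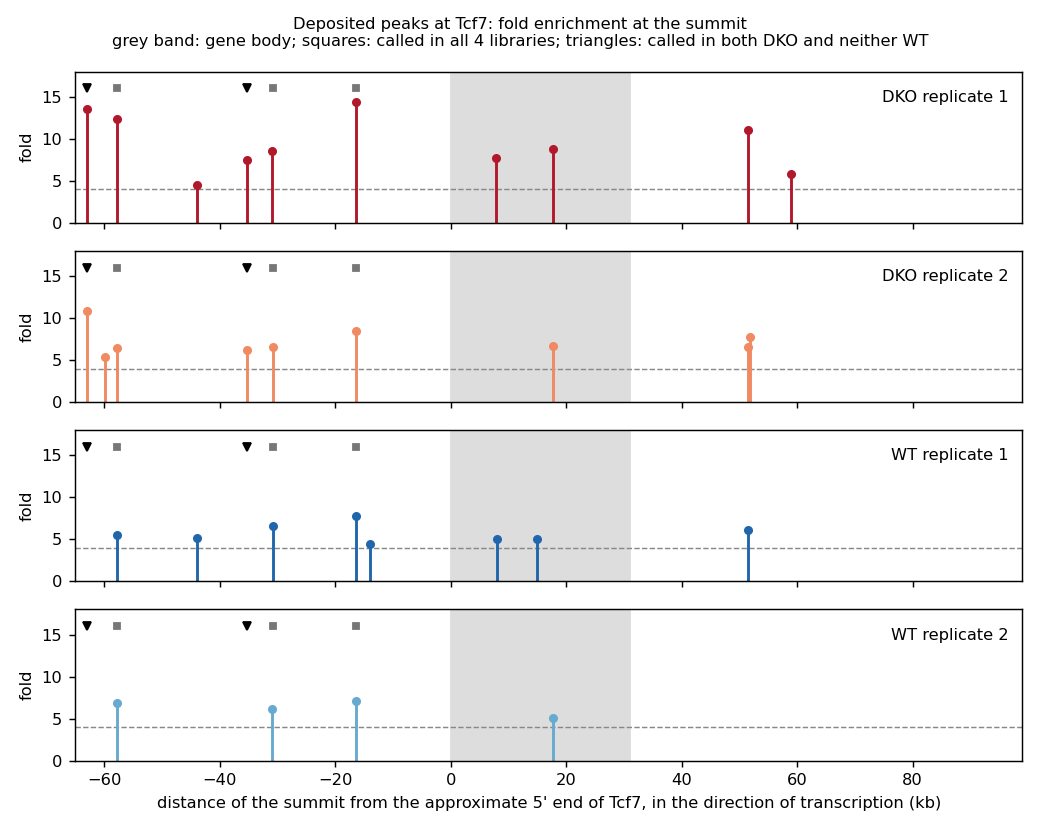
Fold enrichment (y axis) of each deposited peak in the Tcf7 window against the distance of its summit from the approximate 5′ end of the gene (x axis, kb, in the direction of transcription), 1 panel per library, with the gene body in grey and a dashed line at a fold of 4. Squares mark the sites called in all 4 libraries, 16, 31 and 58 kb upstream, and triangles the sites called only in both DKO libraries, 35 and 63 kb upstream.

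The site 16 kb upstream of Tcf7, chr11:52113167-52113463, was the strongest of the locus in both WT lists. Its fold was 14.4 and 8.42 in DKO replicates 1 and 2, and 7.75 and 7.16 in WT replicates 1 and 2. The pileups solved from fold and p were 55 fragments (exact Poisson 95% interval 41.4 to 71.6) and 25 (16.2 to 36.9) in the DKO libraries. In the WT libraries they were 26 (17.0 to 38.1) and 23 (14.6 to 34.5). It also ranked first in DKO replicate 1, and second in DKO replicate 2. These intervals cover counting error only.

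The site 31 kb upstream, chr11:52127586-52128137, was the widest of the 30 at 552 bp. Its fold was 8.60 and 6.62 in DKO replicates 1 and 2, and 6.59 and 6.17 in WT replicates 1 and 2. By fold it was number 2 at the locus in WT replicate 1 and number 3 in WT replicate 2, and was not among the top 3 in either DKO list. Its summits lay up to 276 bp apart between libraries. The site 58 kb upstream, chr11:52154632-52154879, had folds of 12.4 and 6.50 in DKO replicates 1 and 2, and 5.49 and 6.86 in WT replicates 1 and 2. Its summits agreed within 21 bp.

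A pair of Tcf7 sites was called in both DKO libraries and neither WT library, 14.3% of the 14 sites. This is also the share over all union regions, 14.3%. The site 63 kb upstream, chr11:52159879-52160018, had no WT call, and its fold was 13.5 in DKO replicate 1 and 10.8 in DKO replicate 2. It was the strongest Tcf7 site in DKO replicate 2 and the second in DKO replicate 1. Of the 5593 DKO-only regions of the genome, 177 (3.16%) had a lower fold of at least this size in both DKO libraries. The site lay 0.05 kb inside the edge of the window, on the side of the neighbouring gene Vdac1, which encodes a channel of the outer mitochondrial membrane. The nearest site beyond that edge, chr11:52164571-52164736, had folds of 9.24 and 4.46 in DKO replicates 1 and 2, 4.59 in WT replicate 1 and no call in WT replicate 2. DKO-only sites at Tcf7 numbered 4 without DKO replicate 1 and 1 with lists of equal length. The class rests on missing calls, and no test was made of it.

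The other, 35 kb upstream at chr11:52132005-52132315, had a fold of 7.43 in DKO replicate 1 and of 6.17 in DKO replicate 2. It lay between the 31 and 58 kb sites, and its summits in the DKO libraries were 4 bp apart. At the 63 kb site the DKO pileups were 47 and 32 fragments (exact Poisson 95% intervals 34.5 to 62.5 and 21.9 to 45.2). At the 35 kb site they were 38 and 21 (26.9 to 52.2 and 13.0 to 32.1). These pileups are not scaled to depth and are not compared with the WT libraries. The running peak numbers of both WT lists had no gap in the Tcf7 window. The DKO lists had gaps there. DKO replicate 1 lacked 2 numbers between the sites 16 and 31 kb upstream. DKO replicate 2 lacked 1 number between the site 18 kb into the gene and the site 16 kb upstream. That stretch holds the 5′ end and both Tcf7 sites called in WT replicate 1 alone, so at 1 of them or elsewhere in it a DKO peak may have been called and removed.

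In the Tcf7 body no site was called in all 4 libraries. The site 18 kb into the gene, chr11:52079156-52079425, had folds of 8.77 and 6.65 in DKO replicates 1 and 2, 5.10 in WT replicate 2 and no call in WT replicate 1. The site 8 kb into the gene, chr11:52088938-52089202, had 7.72 in DKO replicate 1 and 5.02 in WT replicate 1. Of 3 body sites, 2 were called in a DKO library and 3 in a WT library. Downstream, on the side of Skp1, which encodes an adaptor of SCF ubiquitin ligases, chr11:52045335-52045600 had folds of 11.0 and 6.54 in DKO replicates 1 and 2, 6.16 in WT replicate 1 and no call in WT replicate 2. The 5 Tcf7 sites called in a single library had folds of 4.44 to 7.72. Of these, 1 was in DKO replicate 1, 2 in DKO replicate 2 and 2 in WT replicate 1. Such sites made up 35.7% at Tcf7 and 41.7% of all union regions. Those with a DKO call made up 21.4% and 35.9%, and those with a WT call 14.3% and 5.77%. The files assign no site to a gene, so these positions say only which gene is near.

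At Lef1 the strongest site lay inside the gene in every library. Of the 16 sites, 5 lay upstream, 8 in the gene body and 3 downstream, on the side of Hadh, which encodes an enzyme of fatty acid oxidation. The body held 4 of the 6 sites called in all 4 libraries, and the upstream stretch the other 2.

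**Figure D3:**
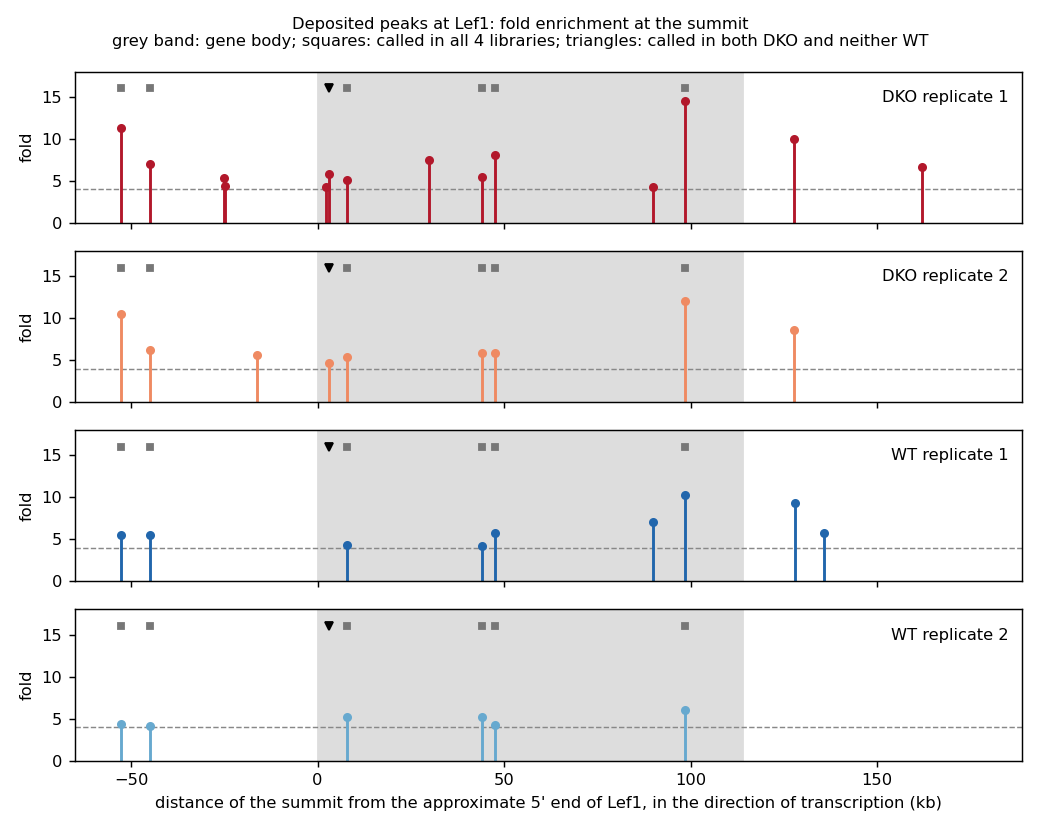
Fold enrichment (y axis) of each deposited peak in the Lef1 window against the distance of its summit from the approximate 5′ end of the gene (x axis, kb), 1 panel per library, with the gene body in grey and a dashed line at a fold of 4. The tallest peak of each panel is the body site 99 kb from the 5′ end, whose fold was 14.5 and 12.0 in DKO replicates 1 and 2 and 10.3 and 6.06 in WT replicates 1 and 2.

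The site 99 kb into Lef1, chr3:130911453-130911972, had folds of 14.5 and 12.0 in DKO replicates 1 and 2, and 10.3 and 6.06 in WT replicates 1 and 2. The pileups were 59 and 35 fragments (exact Poisson 95% intervals 44.9 to 76.1 and 24.4 to 48.7) in the DKO libraries. They were 33 and 19 (22.7 to 46.3 and 11.4 to 29.7) in the WT libraries. It ranked first at the locus in all 4 lists, and its summits agreed within 24 bp.

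The site 53 kb upstream of Lef1, chr3:130760177-130760604, was second in both DKO lists and outside the top 3 in both WT lists. Its folds were 11.3 and 10.5 in DKO replicates 1 and 2, and 5.57 and 4.37 in WT replicates 1 and 2. The pileups were 35 and 28 fragments in the DKO libraries and 15 and 11 in the WT libraries. The local backgrounds were 2.19 and 1.76 fragments for DKO and 1.87 and 1.74 for WT. Pileups and backgrounds are not scaled to depth, here and at the other sites, and are not compared between libraries. The site 45 kb upstream, chr3:130767879-130768179, had folds of 6.98 and 6.26 in DKO replicates 1 and 2, and 5.57 and 4.19 in WT replicates 1 and 2.

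The other 3 shared sites in the Lef1 body had folds of 4.21 to 8.02. At 8 kb, chr3:130820854-130821054 had folds of 5.08 and 5.39 in DKO replicates 1 and 2, and 4.30 and 5.21 in WT replicates 1 and 2. At 44 kb, chr3:130856876-130857119 had 5.42 and 5.84 in DKO replicates 1 and 2, and 4.21 and 5.18 in WT replicates 1 and 2. At 48 kb, chr3:130860334-130860708 had 8.02 and 5.89 in DKO replicates 1 and 2, and 5.77 and 4.22 in WT replicates 1 and 2. Each of them lay within the gene and was listed with both genotypes. Downstream by 128 kb from the 5′ end, chr3:130940755-130940918 had 9.93 and 8.61 in DKO replicates 1 and 2 and 9.36 in WT replicate 1, and was not called in WT replicate 2.

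A single Lef1 site was called in both DKO libraries and neither WT library, 6.25% of the 16 sites against 14.3% of all union regions. It lay 3 kb into the gene, chr3:130816048-130816199, with a fold of 5.78 in DKO replicate 1 and of 4.63 in DKO replicate 2. Without DKO replicate 2 there were 6 DKO-only sites at Lef1, without DKO replicate 1 or WT replicate 1 there were 2, and with lists of equal length there were 0. Of the DKO-only regions of the genome, 85.0% had a lower fold at least as high. Its pileups were 27 fragments in DKO replicate 1 and 17 in DKO replicate 2. The running peak numbers skipped 2 in WT replicate 1 and 1 in WT replicate 2 between the sites 45 kb upstream and 8 kb inside the gene. That stretch holds the 5′ end and the DKO-only site, so a WT peak called there and removed before deposit cannot be told apart from no call. DKO replicate 1 had a further peak at 2.3 kb, chr3:130815286-130815450, with a fold of 4.32, the listed peak nearest to the 5′ end. Its distance is close to the 2.5 kb between both printed Lef1 starts. The most distal RefSeq start of Lef1 lies 46.0 kb from the first in GRCm38.p6. As a distance alone, this falls between those of the shared mm9 sites at 44.1 and 47.7 kb. DKO replicate 1 and WT replicate 1 each lacked 1 running peak number between these shared sites, so a peak may have been called there and removed. Whether any peak lies at the 2.5 or the 46.0 kb start was not tested, since the builds were not aligned. In DKO replicate 2 the nearest peak was 3.1 kb from the 5′ end, and in both WT lists 7.9 kb, counting the peaks that remain in the lists. The 7 Lef1 sites called in a single library had folds of 4.32 to 7.44. Of these, 5 were in DKO replicate 1, 1 in DKO replicate 2 and 1 in WT replicate 1. Such sites made up 43.8% at Lef1 and 41.7% of all union regions. Those with a DKO call made up 37.5% and 35.9%, and those with a WT call 6.25% and 5.77%, so Lef1 stood close to the genome.

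On average more peaks were listed at both loci in the DKO cells, whose lists were longer throughout, and fewer relative to the length of the lists. At Tcf7 there were 10 and 9 peaks in DKO replicates 1 and 2, and 8 and 4 in WT replicates 1 and 2. The means were 9.5 ± 0.707 and 6.0 ± 2.83 (SD, n = 2 each), and the mean log2 numbers differed by 0.75 (exact two-sided permutation p = 0.33, the smallest that 2 against 2 libraries allow). It was 0.25 without WT replicate 2 and 1.25 without WT replicate 1. At Lef1 there were 14 and 9 peaks in DKO replicates 1 and 2, and 9 and 6 in WT replicates 1 and 2. The means were 11.5 ± 3.54 and 7.5 ± 2.12 (SD, n = 2 each), the mean log2 numbers differed by 0.61, and the genotypes met at 9 peaks (exact two-sided permutation p = 0.67). It was 0.29 without DKO replicate 1, 0.32 without WT replicate 2 and 0.93 without DKO replicate 2.

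Per 10000 peaks of the list, Tcf7 had 2.87 and 4.21 in DKO replicates 1 and 2, and 4.57 and 3.61 in WT replicates 1 and 2, a log2 difference of -0.22 (exact permutation p = 0.67). Lef1 had 4.02 and 4.21 in DKO replicates 1 and 2, and 5.14 and 5.42 in WT replicates 1 and 2, a log2 difference of -0.36 (exact permutation p = 0.33). The direction of the difference in peak number at these genes therefore turned with the scaling. A missing peak shows only that a site stayed under the thresholds of its list, and is no proof of closed chromatin.

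Folds of different lists cannot be set against each other, so the 9 sites called in all 4 libraries were ranked within each library among the same 8068 regions. A percentile of 100 is the highest fold of that set. The site 31 kb upstream of Tcf7 stood at percentiles 10.7 and 14.6 in DKO replicates 1 and 2, and at 31.9 and 40.6 in WT replicates 1 and 2. Both DKO values were lower than both WT values. The site 53 kb upstream of Lef1 stood at 31.4 and 60.4 in DKO replicates 1 and 2, and at 14.5 and 3.60 in WT replicates 1 and 2. Both DKO values were higher than both WT values. These were the only sites of the 9 whose genotypes did not overlap, 1 in each direction. Among all 8068 regions the genotypes did not overlap in 19.1% with DKO higher and in 19.0% with DKO lower, so 1 of 9 in each direction is no more than the background.

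**Figure D4:**
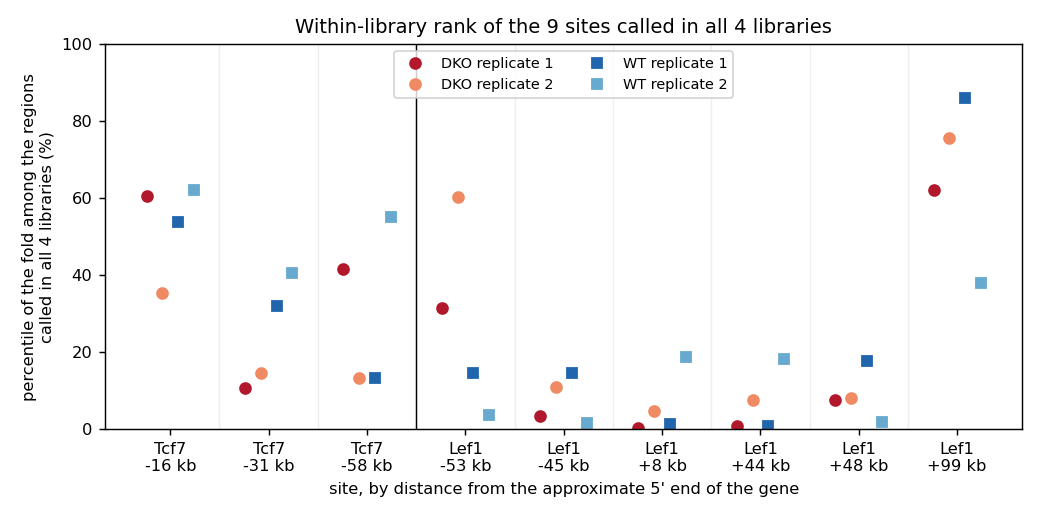
Percentile of the fold among the 8068 regions called in all 4 libraries (y axis, %) for the 3 Tcf7 and 6 Lef1 sites of that set (x axis, by distance from the approximate 5′ end), 1 point per library, DKO as circles and WT as squares. The circles lie below the squares at the Tcf7 site 31 kb upstream and above them at the Lef1 site 53 kb upstream, and overlap with them at the other 7.

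The test of these ranks made no call at either gene. On normal scores of the ranks, the DKO minus WT difference was 1.32 ± 0.53 (SE) at the Lef1 site 53 kb upstream (adjusted p = 0.50 over 8068 regions, limma). At the Tcf7 site 31 kb upstream it was -0.79 ± 0.50 (SE) (adjusted p = 0.71, limma). The other 7 sites had adjusted p between 0.83 and 0.97. Over the genome, limma called 0 of 8068 regions (0%) at an adjusted p of 0.05, and 686 had an unadjusted p under that value, the Lef1 site 53 kb upstream among them. A p that misses the threshold does not show that these sites were equally accessible in both genotypes.

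The remaining shared sites overlapped between the genotypes. The Tcf7 site 16 kb upstream stood at percentiles 60.5 and 35.4 in DKO replicates 1 and 2, and at 53.8 and 62.0 in WT replicates 1 and 2. The Tcf7 site 58 kb upstream stood at 41.5 and 13.4 in DKO replicates 1 and 2, and at 13.4 and 55.2 in WT replicates 1 and 2. The strong Lef1 body site at 99 kb stood at 62.1 and 75.5 in DKO replicates 1 and 2, and at 86.0 and 37.9 in WT replicates 1 and 2. The other 4 Lef1 sites stayed below percentile 19 in every library, from 0.434 for the 8 kb site in DKO replicate 1 to 18.8 for the same site in WT replicate 2.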

How the data were processed

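DNase-seq of CD8+ T cells was deposited as 1 peak list per library. Per the submitters' processing notes, reads were handled with FastQC, Bowtie2 2.2.5 and MACS2 2.1.1 on mm9. Settings, any control library and duplicate handling were not given in the sources used here. The authors deposited for each peak a fold enrichment (a ratio), a −log10 p, a −log10 q and a score of 10 times the −log10 q. Read totals are not given.

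Positions were converted to count from 1. Peaks overlapping by at least 1 bp were merged into union regions. Windows and approximate gene bodies came with the choice of genes, and strands and neighbours from RefSeq (GRCm38.p6, names only). Pileup and background were solved from fold and p for peaks with a −log10 p under 250, and 100% of pileups were whole within 0.02. The solver, the counting and the rank test were tested on simulated data. Ranks of the fold among regions called in all 4 libraries were turned into normal scores and compared with limma 3.58.1 (R 4.3.3), Benjamini-Hochberg adjusted over all of them. Peak numbers were compared with exact permutation tests. Named sites were those called in both libraries of a genotype; other named sites were chosen after their values were seen. Genes, windows and tests were chosen with earlier results of these data known. Alternatives covered thresholds, list length, windows, merging, ranked measure, the replicate number as a block and leaving out each library. Python 3.11.15, pandas 2.3.3 and scipy 1.17.1 were used.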

Additional observations from a re-analysis of the deposited data

How the results depend on the processing

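No site at either gene passed the rank test under any alternative in which it was tested, with a lowest adjusted p of 0.24 (limma). At a −log10 q of at least 5, the Lef1 sites 53 and 45 kb upstream and at 8 and 48 kb were not in the set tested. Genome-wide these alternatives called between 0 and 79 of the shared regions. The difference in mean log2 peak number was 0.75 at Tcf7 and 0.61 at Lef1 with the replicate number as a block (exact sign-flip p = 0.5, the smallest 2 pairs allow), and the block made 0 rank calls. Same-numbered libraries did not deviate together (r = -0.0065 over shared regions), so the numbers were not taken as pairs. With equal list lengths by −log10 p this difference was 0.0 at Tcf7 and -0.50 at Lef1, by fold 0.0 and -1.16, and per 10000 peaks -0.22 and -0.36. In the Tcf7 body alone it was 0.0. At a −log10 q of at least 10 it had no value at Lef1, since 1 library had 0 peaks. Leaving out 1 library gave 0.25 to 1.25 at Tcf7 and 0.29 to 0.93 at Lef1.

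Kept sites at Lef1 numbered 2 at a −log10 q of at least 5, 2 at equal lengths by −log10 p and 1 by fold. At a −log10 q of at least 10 they numbered 0, since no Lef1 site was called in both WT libraries there. The number of sites called in both WT libraries changed with the setting, so these counts are not shares kept. At a −log10 q of at least 5 and at equal lengths by −log10 p, 0 Lef1 sites were lost. At Tcf7 kept sites numbered 1 at equal lengths by fold and 5 in the window widened by 100 kb. In the Tcf7 body they numbered 0, where no site was called in both WT libraries. DKO-only sites at Tcf7 and Lef1 numbered 1 and 0 at equal lengths by either ranking. They were 0 in the Tcf7 body and 5 in the widened Lef1 window. Lost WT sites numbered 1 at each gene at equal lengths by fold. Leaving out 1 library gave 3 to 4 DKO-only sites at Tcf7 and 1 to 6 at Lef1, and 0 to 2 and 0 to 1 lost sites. Such counts can only rise when a library is left out.

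The sign of the rank score (DKO minus WT) turned in 16 of 77 cases, none with a call. Leaving out 1 library, it ran from -0.58 to 0.06 at the Tcf7 site 16 kb upstream and from -0.79 to 0.27 and 0.45 at that 58 kb upstream. At the Lef1 sites it ran from -0.46 and -0.19 to 0.65 (45 kb upstream), from -1.26 to 0.07 (8 kb), from -1.02 to 0.23 and 0.50 (44 kb), from -0.49 to 0.68 (48 kb) and from -0.58 and -0.08 to 0.81 (99 kb). It kept its sign at the Tcf7 site 31 kb upstream, from -0.91 to -0.68, and at the Lef1 site 53 kb upstream, from 0.94 to 1.69. At a −log10 q of at least 5 it was 0.33 at Lef1 44 kb. At Lef1 48 kb it was -0.04 on −log10 p, -0.22 on pileup and -0.20 on centred log2 fold, which gave -0.22 at Lef1 45 kb upstream. The cause was not tested.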

Other observations

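Both windows held more sites than most stretches of the autosomes. The 160 kb at Tcf7 held 14 union regions, and 4.56% of 7561 autosomal windows of that length with at least 1 region held as many. The 250 kb at Lef1 held 16, and 9.13% of 5520 such windows held as many. The medians over these windows were 4 and 6 regions. Summits of the 9 sites called in all 4 libraries lay 21 to 276 bp apart between libraries, with a median of 89 bp, against a median of 47 bp over all 8068 such regions.

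Some values stand outside the windows or the named sites. Below the Lef1 window, chr3:130729385-130729591 had folds of 5.89 and 5.86 in DKO replicates 1 and 2 and no peak in either WT list. WT replicate 1 lacked 1 running peak number between 130717552 and 130760356, a stretch that holds this region. A WT replicate 1 peak called there and removed cannot be told apart from no call. Above the Lef1 window, chr3:131002956-131003073 had a fold of 4.50 in DKO replicate 1 alone. Below the Tcf7 window, chr11:51957322-51957411 had 7.18 in DKO replicate 1 alone. At the site 90 kb into Lef1, chr3:130902710-130903079, the fold was 4.26 in DKO replicate 1 and 7.02 in WT replicate 1. Neither replicate 2 list held a peak there. WT replicate 2 lacked 1 running peak number between the sites 48 and 99 kb into the gene. That stretch holds the 90 kb site, so a WT replicate 2 peak called there and removed cannot be told apart from no call. The 90 kb site was the third of 9 sites in WT replicate 1 and the lowest of 14 in DKO replicate 1. This site was chosen after its values were seen.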
